A study of Mus musculus with 18 samples.

Results

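The collagen genes of the mouse were followed in uterus and ovary of animals with a normal or an altered Ifng transcript. Members were all genes whose symbol is Col, a number, the letter a and a number. That gave 44 genes of 57010 gene IDs in the count tables, of which 52029 have a symbol. By the protein's build, 11 were fibrillar collagens, 6 were the chains of type IV collagen of basement membranes, 9 were FACIT collagens, which sit on the surface of fibrils, and 18 belonged to other types, among them the beaded filaments of type VI, the network, anchoring and membrane-bound collagens and the multiplexins.

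Collagen chains wind around each other into a helix that is hydroxylated and folded in the endoplasmic reticulum, secreted, trimmed and crosslinked outside the cell. Fibrillar collagens form the tensile fibres of connective tissue, made chiefly by fibroblasts and smooth muscle, and type IV collagen forms the sheet beneath epithelium, endothelium and follicles. In the uterus collagen is laid down and broken down with the reproductive cycle and pregnancy, and in the ovary it surrounds follicles and corpora lutea.

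Total RNA was sequenced in 3 uterus and 3 ovary libraries of each of 3 genotypes, 18 libraries in all, from C57B6/J mice aged 20 to 25 weeks. WT animals carry the normal gene. ARE+/- animals are heterozygous and ARE-/- animals homozygous for the altered ARE, the AU-rich element of the Ifng transcript that shortens its life in the cell. The allele was present in the whole animal, so no cell type was singled out. The stage of the cycle, and which libraries are from 1 animal, are not given in the sources used here. A uterus, ovary or carrier named below therefore stands for a library, and the spread between libraries may be technical. Uterus replicates are numbered 1, 2 and 3 in every genotype, and ovary replicates 1, 2 and 3 in WT, 1, 2 and 4 in ARE+/- and 2, 3 and 6 in ARE-/-. Values are given in that order. The titles of uterus WT replicate 1 and ovary ARE-/- replicate 6 call them backups.

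Each library held between 33185496 and 49720354 counts. Ifng had 4, 6 and 0 counts in WT uteri, 58, 36 and 70 in ARE+/- and 96, 130 and 56 in ARE-/-, and 4, 0 and 4, 18, 10 and 28 and 51, 38 and 50 in the ovaries of the same genotypes, so every library carrying the allele lay above every WT library of its tissue. Ovary libraries held a summed level of theca and luteal markers of 3536 to 12997 CPM (counts scaled to library size), and uterus libraries 6.68 to 188 CPM. Markers of uterine tissue summed to 324 to 1153 CPM in uteri and 138 to 319 in ovaries. The highest theca and luteal sum of a uterus, 188 CPM, and the lowest sum of uterine markers, 324 CPM, both belonged to uterus ARE-/- replicate 1.

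Several libraries stood apart from their group. Of 39 collagens with at least 1 CPM in all WT uteri, WT replicate 2 lay at least 2-fold above the mean of replicates 1 and 3 for 8 genes and at least 2-fold below it for 9, while replicates 1 and 3 were 2-fold apart for 1 gene. Col6a4, a type VI chain, had 2608, 443 and 2459 CPM in the WT uteri. Col17a1, the membrane collagen of epithelial cells, had 79.3, 14 and 78.3 CPM there, and Col4a5 had 73.1, 224 and 72.1. The second WT uterus was thus low in Col6a4 and Col17a1 and high in Col4a5. In the ARE-/- uteri, replicate 1 had an adipocyte marker sum of 12793 CPM and an erythroid sum of 7273 CPM. Replicates 2 and 3 had adipocyte sums of 2260.0 and 1163 CPM and erythroid sums of 1300.3 and 839 CPM. In the ovary, ARE+/- replicate 4 and ARE-/- replicates 2 and 3 had theca and luteal sums of 4351, 3536 and 3764 CPM, below the 7125 to 12997 CPM of the other 6 ovaries.

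The WT tissues differed first in how much collagen they expressed. Collagen transcripts took 2.50% to 3.75% of all counts in WT uteri and 0.683% to 0.817% in WT ovaries. Per length of transcript (CPM per kilobase), the order in the WT uterus was Col3a1 at 1065 ± 52.1 (SD, n = 3), Col1a1 at 977 ± 278, Col1a2 at 887 ± 266, Col6a1 at 779 ± 285 and Col6a2 at 545 ± 206. The standard deviations of these neighbours overlapped throughout. In the WT ovary the order was Col3a1 at 207 ± 20.9, Col1a2 at 198 ± 16.4, Col6a1 at 170.4 ± 3.38, Col4a1 at 146 ± 14.8 and Col1a1 at 107 ± 13.03. There, Col3a1 and Col1a2 did not differ beyond their spread. Fibrillar chains made up 56.8% ± 3.16 of the summed per-length level of collagens in the WT uterus and 46.1% ± 0.908 in the WT ovary, and type IV chains 5.84% ± 1.81 and 21.2% ± 0.675. Levels per length were scaled within each tissue, so the shares, and not the levels, are set side by side.

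**Figure D1:**
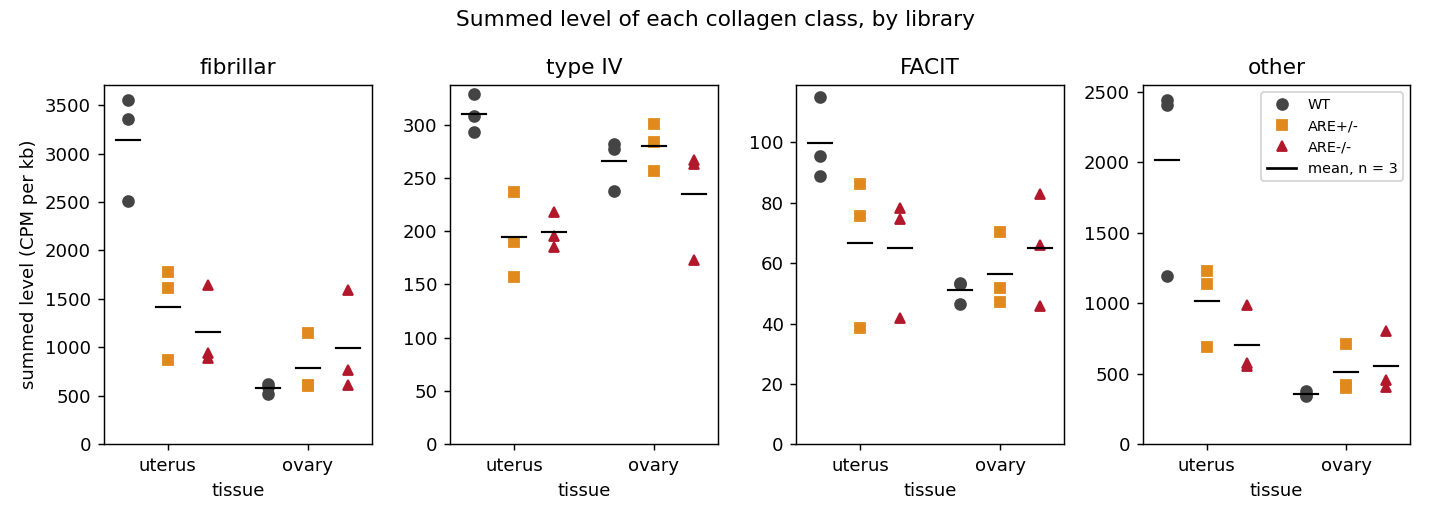
Summed level of each collagen class in every library, in CPM per kilobase of transcript scaled within each tissue (linear axes starting at 0, 1 axis per class). Points are libraries, coloured by genotype, and bars are means of 3. The 3 WT uteri lie above the uteri of both other genotypes for fibrillar, type IV and FACIT chains. In uteri, Col16a1 was the largest part of the mean FACIT sum.

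A count was found for all 44 collagens in each tissue, and in each tissue 40 had a mean of at least 1 CPM. Too few counts for a test were found for Col9a1 and Col19a1 in both tissues and for Col2a1 in the uterus. Of 42 collagens tested between WT ovary and WT uterus, 19 were lower and 6 higher in the ovary (edgeR quasi-likelihood test over all 18 libraries, adjusted p under 0.05), where 11.9% and 13.3% of 26682 genes tested were lower and higher. DESeq2 called 28 in either direction, and 25.4% of all genes. The median log2 difference of the collagens was -0.85, against -0.02 over all genes. Of 11 fibrillar chains, 7 were lower and 2 higher, with a median of -2.30. Of the type IV chains, 1 was lower and 1 higher, with a median of -0.43. Cell type markers differed between the same libraries. In the ovary 5 of 7 fibroblast and stroma markers, 6 of 7 smooth muscle markers (median log2 difference -1.70) and 4 of 6 epithelium markers (median -1.17) were lower. All 8 granulosa and oocyte markers, all 5 theca and luteal markers and 3 of 4 cartilage markers tested were higher. Also higher were 3 of 9 adipocyte and 1 of 4 mesothelium markers. Lower were 3 of 6 endothelium markers (median -0.56), all 5 uterine tissue markers and 2 of 5 T cell markers. None of the erythroid (6), macrophage (5) or proliferation (5) markers passed. The part of these markers in the collagen values was not tested.

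The largest difference was in Col17a1, with 83.9, 14.7 and 82.7 CPM in WT uteri and 0.802, 0.808 and 0.695 in WT ovaries on the scale of all 18 libraries. It was lower in the ovary by a log2 difference of -6.29 ± 0.62 (SE, adjusted p = 6.04e-06). Col7a1, the anchoring fibril of epithelial basement membranes, stood at 98.7, 120.0 and 97.4 CPM in the uterus and 7.85, 9.15 and 13.2 in the ovary, a log2 difference of -3.39 ± 0.36 (adjusted p = 1.14e-05). All ovaries lay far below all uteri for both of these epithelial collagens. Col1a1, the major chain of type I fibrils, had 7137, 4086 and 7126 CPM in the uterus and 533, 606 and 683 in the ovary, with a log2 difference of -3.33 ± 0.49 (adjusted p = 0.000173). Col6a2 and Col6a4 were lower too, with log2 differences of -3.36 and -3.31. Col24a1, a minor fibrillar chain, came last of the 6 largest, at -2.79 ± 0.98 with an adjusted p of 0.0498, and passed the threshold in 7 of 25 alternative fits.

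The 6 collagens higher in the WT ovary came from every class. Col9a2, a FACIT chain best known from cartilage, had 36.2, 35.7 and 36.1 CPM in the ovary and 1.82, 10.1 and 1.11 in the uterus, a log2 difference of 3.04 ± 0.85 (adjusted p = 0.0168). The ovaries were nearly equal to each other, and the second uterus was well above the other uteri. Col11a1, a fibrillar chain of cartilage and of fine fibrils, differed by 1.66 ± 0.43, Col6a5 by 1.55 ± 0.45, Col4a4 by 1.16 ± 0.30, Col8a2, a short-chain network collagen, by 1.03 ± 0.34 and Col27a1, a fibrillar chain, by 0.95 ± 0.25. Col4a1, the most abundant type IV chain, stood at 812, 982 and 981 CPM in the ovary and 1132, 1099 and 1064 in the uterus, and its log2 difference of -0.25 ± 0.17 did not pass (adjusted p = 0.322).

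**Figure D2:**
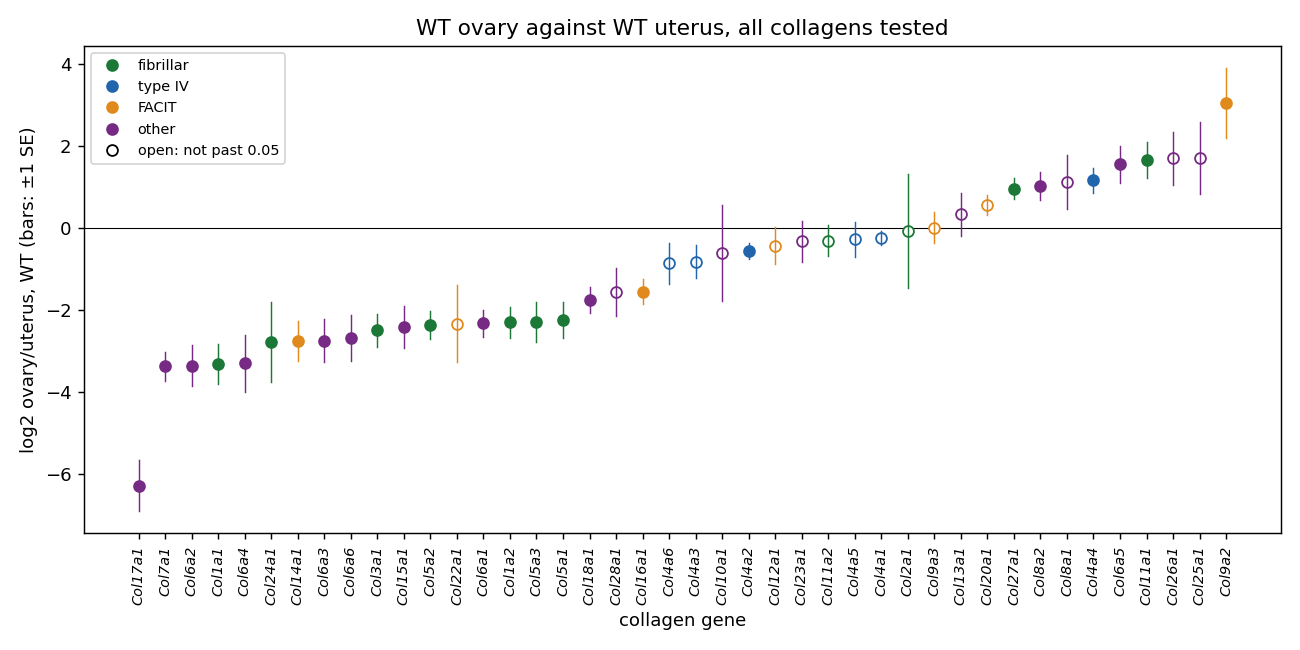
Log2 difference between WT ovary and WT uterus for each of the 42 collagens tested, ordered by value, with bars of 1 standard error. Filled points passed an adjusted p of 0.05 and colours mark the class; 6 of the filled points lie above 0 and 19 below, with Col17a1 lowest and Col9a2 highest.

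In the uterus, collagen transcripts took 1.03% to 1.98% of counts in ARE+/- and 0.838% to 1.75% in ARE-/- animals, below all 3 WT uteri. Col6a3, Col1a1 and Col1a2 fell in ARE-/- against WT uteri, and no collagen rose, of 41 tested. Over all 24277 genes tested, 0.391% fell and 3.36% rose. By DESeq2 15 fell and 0 rose, where 8.39% of all genes were called in either direction. In edgeR 20 collagens (48.8%) had an unadjusted p under 0.05, against 19.9% of all genes. Of these, Col8a1, a short-chain network collagen, had a value above 0, and the rest lay below 0. Col8a1 stood at 1.89 ± 0.78 (adjusted p = 0.216) with overlapping groups. Of the 41 tested, 31 had values below 0, where 11440 of all 24277 genes did. The median log2 fold change of the collagens was -0.67, against 0.04 over all genes. The groups did not overlap for 17 collagens, all lower in ARE-/-, where 9.8% of all genes had every ARE-/- library below every WT library. In bulk tissue, fewer cells of a type and less RNA per cell cannot be told apart.

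The fibrillar class summed to 3138 ± 557 CPM per kilobase (SD, n = 3) in WT, 1421 ± 482 in ARE+/- and 1158 ± 421 in ARE-/- uteri, with all WT uteri above all carriers. Fibrillar collagens were the class with the lowest median log2 fold change in ARE-/-, -1.40, and 8 of 10 tested had every ARE-/- uterus below every WT uterus. Col1a1 had 6743, 3887 and 6747 CPM in WT, 2913, 2744 and 1391 in ARE+/- and 1771, 2601 and 1424 in ARE-/- uteri. All 6 uteri with the allele lay below the lowest WT uterus. Its log2 fold change in ARE-/- was -1.58 ± 0.37 (SE, n = 3 per group, adjusted p = 0.0453). Col1a2, its partner chain in type I collagen, had 5819.7, 3131 and 5284 CPM in WT, 2541, 2487 and 1479 in ARE+/- and 1398, 2270.2 and 1713 in ARE-/-, a log2 fold change of -1.40 ± 0.32 (adjusted p = 0.0451). WT replicate 2 was the lowest WT uterus for both chains, and no carrier reached it.

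Col3a1, the type III chain of soft, distensible tissue, had 6146, 6033 and 5597 CPM in WT and 1444, 3649.7 and 1693 in ARE-/- uteri. WT uteri were close together, ARE-/- uteri were spread, and the log2 fold change of -1.39 ± 0.41 did not pass (adjusted p = 0.0986). Col5a1 and Col5a2, the type V chains that nucleate type I fibrils, had log2 fold changes of -1.54 ± 0.40 (adjusted p = 0.0682) and -1.07 ± 0.33 (adjusted p = 0.109). Col11a1 stood at -1.51 ± 0.52, Col27a1 at -0.67 ± 0.20 and Col5a3 at -0.59 ± 0.25, each with groups that did not overlap and an adjusted p above the threshold. Col11a2, at 0.71 ± 0.46, was the only fibrillar chain tested with a value above 0, and Col2a1, with at most 13 counts in a uterus, was not tested.

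Type IV chains summed to 310 ± 17.8 CPM per kilobase in WT, 195 ± 40.3 in ARE+/- and 199 ± 17.0 in ARE-/- uteri, and all 6 had log2 fold changes below 0 in ARE-/-, from -0.62 to -1.55. Col4a1 had 1069.8, 1045 and 1007 CPM in WT, 723, 555 and 538 in ARE+/- and 677, 705 and 648 in ARE-/- uteri, which puts all carriers of the allele below all WT uteri with little spread. Its log2 fold change was -0.62 ± 0.18 (adjusted p = 0.0951), and that of its partner Col4a2 was -0.62 ± 0.20 (adjusted p = 0.128). Col4a1 and Col4a2 lie head to head and share 22 exon bases, and reads there were counted for both. Col4a3 and Col4a4, chains of the restricted type IV network, stood at -1.55 ± 0.48 and -1.12 ± 0.37. Col4a5 and Col4a6 stood at -0.70 ± 0.54 and -0.63 ± 0.61 with overlapping groups.

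The largest change past the test was in type VI collagen. Col6a3, the long chain of the type VI beaded filament that surrounds cells, had 2903, 962 and 2933 CPM in WT, 648, 665 and 419.9 in ARE+/- and 303, 722 and 456 in ARE-/- uteri. The second WT uterus lay far below the other WT uteri and still above all 6 carriers. The log2 fold change was -2.20 ± 0.46 (adjusted p = 0.032). Col6a1 and Col6a2, its partner chains, stood at -1.35 ± 0.37 (adjusted p = 0.0812) and -1.52 ± 0.46 (adjusted p = 0.106). Col6a4 had the lowest value of all collagens, -2.39 ± 0.73, but WT replicate 2, at 443 CPM, lay within the ARE-/- range of 108, 463 and 477.

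The multiplexins, basement membrane collagens whose ends release antiangiogenic fragments, gave unlike values, whose difference was not tested. Col15a1 had 635, 981 and 631 CPM in WT and 221, 354 and 107 in ARE-/- uteri, with groups apart and a log2 fold change of -1.72 ± 0.48 (adjusted p = 0.0858), whereas Col18a1 stood at -0.55 ± 0.34 with overlapping groups. FACIT collagens had a median of 0.02, while their summed level was 99.8 ± 13.7 CPM per kilobase in WT, 66.8 ± 25.1 in ARE+/- and 65.0 ± 20.1 in ARE-/- uteri, with all WT uteri above all carriers. Col16a1 alone gave 69.9 of this mean level in WT, 47.6 in ARE+/- and 35.8 in ARE-/- uteri, so the sum mainly follows 1 gene. Col16a1, at -0.96 ± 0.29, was the FACIT chain with groups apart, while Col12a1 and Col14a1, which coat type I fibrils, stood at -0.34 ± 0.55 and 0.02 ± 0.49.

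**Figure D3:**
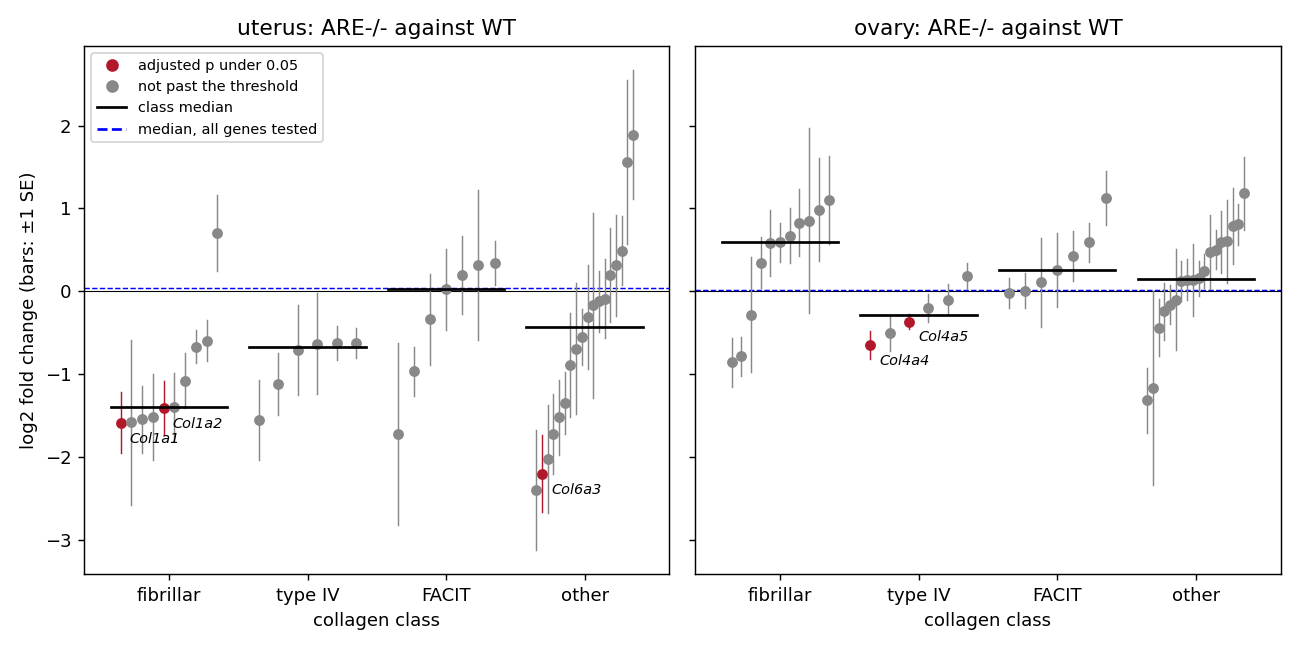
Log2 fold change of ARE-/- against WT for every collagen tested, by class, in uterus (left) and ovary (right), with bars of 1 standard error. Black lines are class medians, the dashed line is the median of all genes tested, and red points passed an adjusted p of 0.05: Col1a1, Col1a2 and Col6a3 in the uterus and Col4a4 and Col4a5 in the ovary, all below 0.

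The 3 uterine calls depended on which libraries entered the fit. Leaving out a library changes the fit of every gene. Calls over all genes in such fits are not set beside the collagen counts, here or below. The counts therefore show only how stable the collagen calls were. Without WT replicate 2, 8 collagens fell, and without ARE-/- replicate 2, 6 fell, while none passed without WT replicate 1 or 3, ARE+/- replicate 1 or 2, or ARE-/- replicate 1 or 3. Col1a1, Col1a2 and Col6a3 each passed in 7 of 15 alternative fits and had a value below 0 in all 15. Without both WT replicate 2 and ARE-/- replicate 1, an alternative added after seeing the data, 9 collagens fell (Col1a1, Col1a2, Col4a3, Col4a4, Col5a2, Col6a1, Col6a3, Col6a4 and Col6a6).

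Markers of other cell types also differed between these uteri. All 9 adipocyte markers, 5 of 6 erythroid markers, 5 of 5 T cell markers and 5 of 5 macrophage markers rose in ARE-/- uteri. The adipocyte sum was 87 to 137 CPM in WT and 1163 to 12793 CPM in ARE-/- uteri, and the macrophage sum 343 to 482 and 1023 to 1874 CPM. No marker of fibroblast and stroma (0 of 7) or smooth muscle (0 of 7) passed in either direction. The fibroblast sum was 1329.8 to 2029.9 CPM in WT and 1377 to 1782 CPM in ARE-/- uteri, and the smooth muscle sum was 7910.2 to 8702 CPM in WT. Among ARE-/- uteri, replicate 1 had a smooth muscle sum of 19069 CPM, above all WT uteri, and replicates 2 and 3 had 4222 and 4284 CPM, below all of them. None of 5 markers of uterine tissue passed, all 5 had values below 0 (median -0.82), and their sum was 1114 to 1153 CPM in WT and 324 to 975 CPM in ARE-/- uteri. No adipocyte, T cell, macrophage, fibroblast or smooth muscle marker was at 0 in any uterus, and 1 erythroid marker was at 0 in 3 uteri. The part of these shifts in the collagen values was not tested.

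ARE+/- uteri were tested against the same WT uteri, so the comparisons share their controls. No collagen passed in ARE+/-, where 1.14% of all genes did in either direction. An unadjusted p under 0.05 was found for 13 collagens (31.7%) and 14.1% of all genes, and DESeq2 called 9 collagens (21.4%) and 4.75% of all genes. The median log2 fold change was -0.72 over all collagens, -1.04 over fibrillar and -0.70 over type IV chains. All ARE+/- uteri lay below all WT uteri for 16 collagens, where 12.9% of all genes did so. Beside the ARE-/- values above, Col1a1 stood at -1.30 ± 0.36, Col1a2 at -1.13 ± 0.32, Col6a3 at -1.97 ± 0.46 and Col4a1 at -0.78 ± 0.18 in ARE+/-. None of 7 smooth muscle markers passed in ARE+/- uteri, but all 7 had values below 0 (median -0.82), with sums of 4531 to 5126 CPM, below all WT uteri. The adipocyte sum was 368 to 607 CPM (0 of 9 passed) and the macrophage sum 813 to 1066 CPM (0 of 5 passed), both above all WT uteri, and 3 of 5 T cell markers rose. The sum of uterine tissue markers was 655 to 1003 CPM, below all WT uteri, and 0 of 5 passed. The part of these shifts was not tested. ARE-/- and ARE+/- uteri were also compared directly. No collagen passed by edgeR or DESeq2, where 0% and 0.642% of all genes did. An unadjusted p under 0.05 was found for 5 collagens (12.2%) and 4.87% of all genes. Col1a1 differed there by -0.28 ± 0.36 and Col6a3 by -0.23 ± 0.44. Without WT replicate 2 and ARE-/- replicate 1, 10 collagens fell in ARE+/- uteri.

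**Figure D4:**
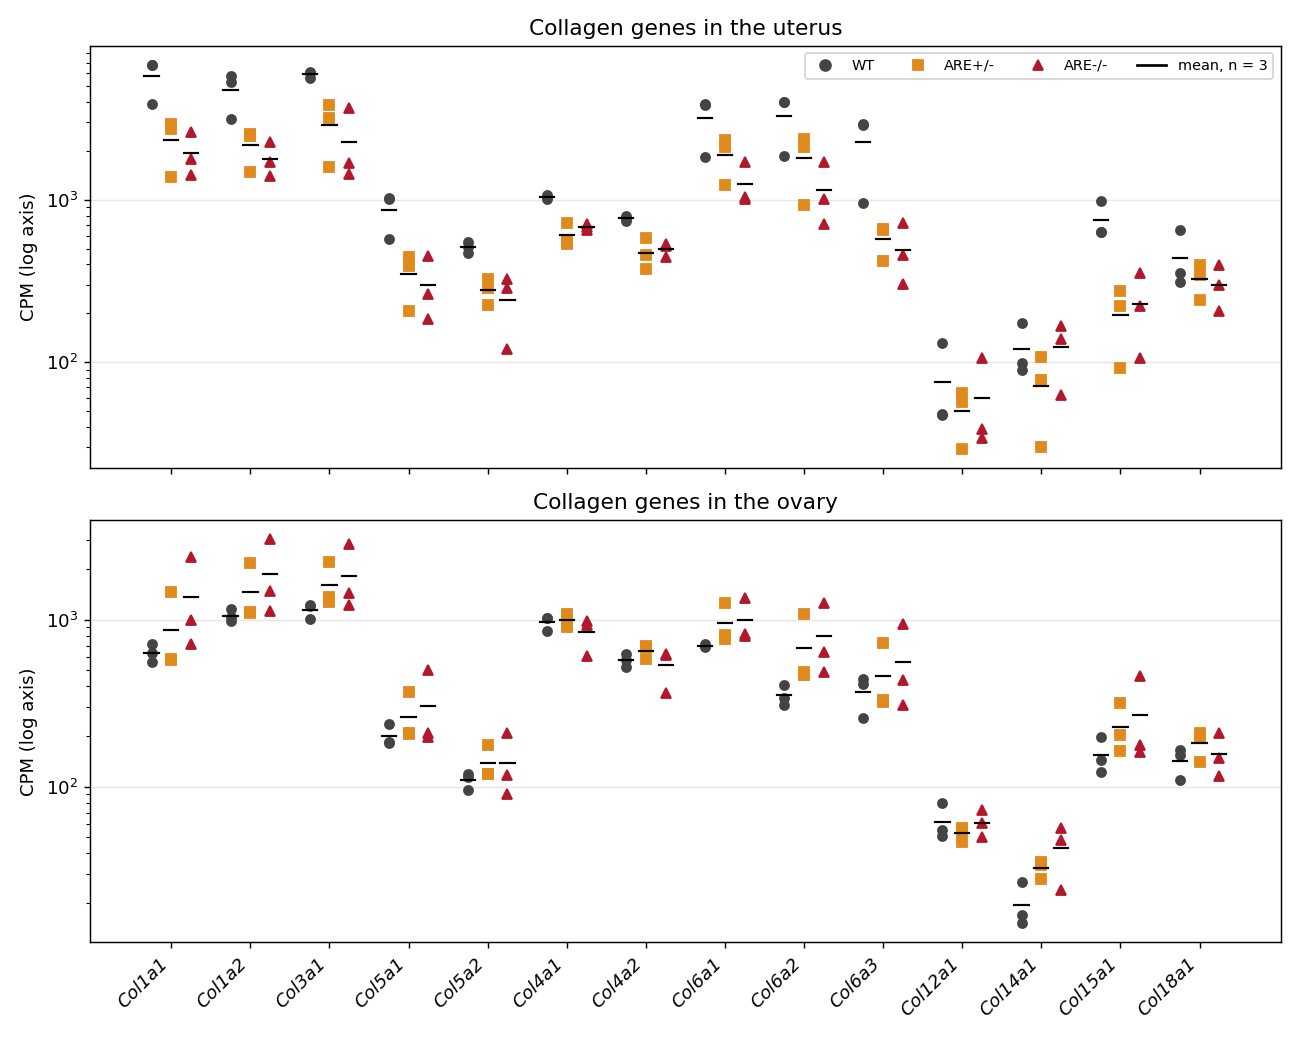
Level of 14 collagen genes in every library, in CPM on a log axis scaled within each tissue, uterus above and ovary below. Points are libraries, coloured and shaped by genotype, and bars are means of 3; for Col1a1, Col1a2, Col6a3 and Col4a1 the 3 WT uteri lie above all other uteri, and in the ovary 1 ARE+/- and 1 ARE-/- library lie highest for Col1a1 and Col6a3.

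In the ovary, 2 type IV chains fell in ARE-/- animals and no collagen rose, of 42 tested, where 4.15% of all 24457 genes fell and 6.31% rose. The share of collagens that fell was thus near that of all genes. By DESeq2 5 fell and 2 rose, where 14.4% of all genes were called in either direction. In edgeR 11 collagens had an unadjusted p under 0.05, and 26.6% of all genes, so the share among the 42 collagens was near that of all genes. The median log2 fold change was 0.17 over all collagens, 0.59 over fibrillar, -0.28 over type IV, 0.26 over FACIT and 0.15 over other chains, against 0.02 over all genes. The groups were apart and lower in ARE-/- for 6 collagens and apart and higher for 7, of 42, where 14.5% and 16.1% of all genes were. These shares too were near those of all genes.

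Col4a5, an X-linked type IV chain, had 103, 123 and 109 CPM in WT, 107, 91.6 and 96.4 in ARE+/- and 87.6, 86.7 and 85.8 in ARE-/- ovaries. The ARE-/- ovaries were close to each other and below all other ovaries. Its log2 fold change was -0.36 ± 0.09 (adjusted p = 0.0336). Col4a4 had 60.4, 62.3 and 64.5 CPM in WT, 45.3, 53.8 and 55.9 in ARE+/- and 49.6, 41.1 and 29.2 in ARE-/- ovaries, a log2 fold change of -0.64 ± 0.17 (adjusted p = 0.0385). All 6 carriers lay below the WT ovaries, and replicate 6 was the lowest. Each of these chains passed in 7 of 15 alternative fits and had a value below 0 in all of them. Neither passed without WT replicate 1, 2 or 3 or without ARE-/- replicate 3, while 4 collagens passed without ARE+/- replicate 4 (Col4a4, Col4a5, Col8a1 and Col11a1, all lower) and 4 without ARE-/- replicate 6 (Col4a4, Col4a5 and Col27a1 lower, Col14a1 higher).

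None of the partner chains passed. Col4a3, which is assembled with Col4a4 and Col4a5, stood at -0.51 ± 0.21 with groups apart (adjusted p = 0.153), and Col4a6 stood at 0.19 ± 0.16. Col4a1 and Col4a2, with 936, 604 and 979 and 614, 363 and 623 CPM in ARE-/- ovaries, stood at -0.20 ± 0.17 and -0.10 ± 0.19. ARE-/- replicate 3 was the low library for both.

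Fibrillar chains summed to 578 ± 53.5 CPM per kilobase in WT, 785 ± 311 in ARE+/- and 989 ± 528 in ARE-/- ovaries, and type IV chains to 266 ± 24.0, 280 ± 22.3 and 234 ± 52.9. Col1a1 had 561, 631 and 715 CPM in WT, 574, 583 and 1456 in ARE+/- and 2385, 1000.1 and 715 in ARE-/- ovaries. Its log2 fold change was 1.10 ± 0.53 (adjusted p = 0.236). The third ARE-/- ovary was level with the highest WT ovary. ARE+/- replicate 4 and ARE-/- replicates 2 and 3 were the high libraries, and these are the libraries with the low theca and luteal sums. Their smooth muscle sums were 4240.4, 5318 and 4314 CPM, against 2207 to 2919 CPM in the other ovaries. Fibroblast and stroma sums were 1017, 1303 and 1067 CPM, against 802 to 964 CPM. Uterine tissue sums were 285, 319 and 318 CPM, against 138 to 217 CPM. Epithelium sums were 772, 767 and 936 CPM, against 403 to 651 CPM. Macrophage sums were 714, 1204 and 1124 CPM, against 314 to 694 CPM. For the remaining marker lists these ovaries overlapped with the others. The part of these sums in the collagen values was not tested. Without those 3 ovaries, an alternative added after seeing the data, the fibrillar median of ARE-/- against WT was -0.30, with 1 ARE-/- library left whose spread is taken from the other groups, and 1 collagen, Col4a4, passed.

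Among the other chains of the ovary, Col1a2 stood at 0.83 ± 0.40, Col3a1 at 0.67 ± 0.33, Col5a1 at 0.58 ± 0.40 and Col5a2 at 0.35 ± 0.30. Col6a1 stood at 0.50 ± 0.24, Col6a2 at 1.18 ± 0.44 and Col6a3 at 0.60 ± 0.50. Col6a2 had 339, 309 and 406 CPM in WT, 466, 486 and 1082 in ARE+/- and 1266, 639.8 and 489 in ARE-/- ovaries, so every carrier lay above every WT ovary (adjusted p = 0.138). Col14a1 had 15.2, 26.7 and 16.9 CPM in WT and 56.5, 48.1 and 24 in ARE-/- ovaries, a log2 fold change of 1.13 ± 0.32 (adjusted p = 0.0622). Col15a1, Col18a1 and Col12a1 stood at 0.79 ± 0.46, 0.14 ± 0.25 and -0.02 ± 0.18. In ARE+/- ovaries, tested against the same WT libraries, no collagen passed by edgeR or DESeq2, where 1.71% and 5.96% of all genes did. An unadjusted p under 0.05 was found for 1 collagen (2.38%) and 15.7% of all genes. Col4a4 and Col4a5 stood at -0.27 ± 0.17 and -0.18 ± 0.09 there. Between ARE-/- and ARE+/- ovaries no collagen passed by either tool, where 0.0491% (edgeR) and 0.763% (DESeq2) of all genes did. An unadjusted p under 0.05 was found for 4 collagens (9.52%) and 8.39% of all genes.

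Whether the genotype effect differed between tissues was tested directly over all 18 libraries, as the effect in the ovary minus the effect in the uterus. No collagen passed for ARE-/-, where 0.169% of all genes did, and none for ARE+/-, where 0.00375% did. An unadjusted p under 0.05 was found for 14 collagens (33.3%) in each, against 14.1% of all genes for ARE-/- and 8.92% for ARE+/-. DESeq2 called 10 collagens and 3.18% of all genes for ARE-/-, and 1 collagen and 0.769% of all genes for ARE+/-. The median difference for ARE-/- was 0.66 over all collagens, 1.57 over fibrillar and 0.49 over type IV chains, against -0.04 over all genes. Col1a2 came nearest, at 2.22 ± 0.52 (adjusted p = 0.0912), followed by Col1a1 at 2.68 ± 0.65 (adjusted p = 0.101). Without uterus WT replicate 2, 6 collagens passed, and without uterus ARE-/- replicate 2, 4 did.

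Ratios between chains were compared per length in 16 exact two-sided permutation tests over both genotypes and tissues. The smallest p for 3 against 3 libraries is 0.1, and no ratio had a Benjamini-Hochberg adjusted value below 0.4. In the uterus the ratio of Col1a1 to Col1a2 was 1.11 ± 0.0547 (SD, n = 3) in WT and 0.975 ± 0.203 in ARE-/- (exact p = 0.4), with overlapping groups. In ARE+/- uteri it was 0.959 ± 0.0981, below all WT uteri (exact p = 0.1). In the ovary the same ratio was 0.540 ± 0.0218 in WT and 0.630 ± 0.0722 in ARE-/- with groups apart (exact p = 0.1), and 0.517 ± 0.0749 in ARE+/- with groups overlapping (exact p = 0.6). The ratio of Col3a1 to Col1a1 was 1.17 ± 0.422 and 1.21 ± 0.317 in WT and ARE-/- uteri (exact p = 1) and 1.94 ± 0.128 and 1.55 ± 0.284 in ovaries (exact p = 0.2). Col4a1 to Col4a2, the linked pair, was 1.32 ± 0.0469 and 1.33 ± 0.0960 in uteri (exact p = 0.9) and 1.65 ± 0.0777 and 1.55 ± 0.0683 in ovaries (exact p = 0.3). In ARE+/- ovaries it was 1.49 ± 0.0567, below all WT ovaries (exact p = 0.1). Type IV against type I chains was 0.180 ± 0.0731 in WT and 0.310 ± 0.0510 in ARE-/- uteri (exact p = 0.2). In ovaries it was 0.872 ± 0.0418 and 0.488 ± 0.280 (exact p = 0.1), with the ARE-/- ovaries at 0.272, 0.388 and 0.804. The remaining ARE+/- ratios overlapped with WT.

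Genes that build, break down or bind collagen, its matrix partners and a TGF-beta list were examined as lists beside the chains. Over all lists, 7 of 100 genes tested rose (7%) and 5 fell (5%) in ARE-/- uteri, where 3.36% of all genes rose and 0.391% fell. Of 15 genes of prolyl and lysyl hydroxylation, 3 fell and none rose in ARE-/- uteri, with a median log2 fold change of -0.69. P4ha2, a prolyl hydroxylase that stabilises the collagen helix, had 65.6, 60.3 and 67.2 CPM in WT, 35.4, 36.2 and 29 in ARE+/- and 20.7, 28.5 and 23.9 in ARE-/- uteri. The 3 genotypes did not overlap, and the fold change of -1.40 ± 0.17 (adjusted p = 0.00269) held in all 15 alternative fits. P4ha3 and P3h1, further prolyl hydroxylases, fell, with log2 fold changes of -2.48 ± 0.53 and -1.37 ± 0.30. Of 9 genes of folding and secretion, Sec24d, a coat protein of the vesicles that carry procollagen, fell (-1.34 ± 0.32). All 9 of these genes had values below 0, with a median of -0.74. Serpinh1, the collagen chaperone HSP47, had 1475, 1070.2 and 1256 CPM in WT and 627, 727 and 332 in ARE-/- uteri, and -1.17 did not pass (adjusted p = 0.136).

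Crosslinking and propeptide enzymes had no member past the test in ARE-/- uteri (0 of 13, median -0.11), nor had fibril-associated proteins (0 of 11, median -0.41) or basement membrane partners (0 of 15, median -0.02). Among 15 genes of collagen degradation, a list that also holds the inhibitors Timp1, Timp2, Timp3 and Timp4, 3 rose, where 3.36% of all genes did. Ctss, a lysosomal cysteine protease of antigen-presenting cells, had 48.6, 74.4 and 52.8 CPM in WT and 157, 243 and 583 in ARE-/- uteri, a log2 fold change of 2.48 ± 0.47 (adjusted p = 0.0202). Mmp13, an interstitial collagenase, rose from 4, 6 and 6 counts to 40, 57 and 34, by 3.18 ± 0.69, and Mmp9, a gelatinase, by 1.27 ± 0.30. Of 8 collagen receptors tested, Itga11 and Lair1 rose. Itga11, the integrin chain with which mesenchymal cells bind fibrillar collagen, had 3.46, 4.2 and 3.43 CPM in WT, 12, 15.3 and 21.2 in ARE+/- and 19, 12.4 and 33.7 in ARE-/- uteri, a log2 fold change of 2.55 ± 0.38 (adjusted p = 0.00739). Lair1, an inhibitory collagen receptor of leukocytes, rose by 2.53 ± 0.41. Ctss and Lair1 rose in the same uteri as the T cell and macrophage markers given above, and the part of those cells was not tested.

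In the TGF-beta list, 2 of 14 genes rose and 1 fell in ARE-/- uteri, against the same 3.36% and 0.391% of all genes. Ltbp2, a matrix protein related to those that store latent TGF-beta, had 5.25, 4.25 and 4.1 CPM in WT, 25.8, 30.6 and 24.3 in ARE+/- and 34.5, 21.7 and 43.1 in ARE-/- uteri, a log2 fold change of 2.87 ± 0.27 (adjusted p = 0.000788) that held in all 15 alternative fits. Tgfb1, the ligand, rose by 1.04 ± 0.21, and Tgfbr3, a coreceptor, fell (-1.06 ± 0.22). In ARE+/- uteri Ltbp2, Itga11, Lair1 and Mmp9 rose, by 2.57 ± 0.27, 2.12 ± 0.37, 2.22 ± 0.40 and 1.58 ± 0.30, and P4ha2 fell (-0.94 ± 0.17).

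In ARE-/- ovaries 5 of 101 genes of these lists rose (4.95%) and 4 fell (3.96%), where 6.31% of all genes rose and 4.15% fell, so both shares lay near or below the background. Serpinh1 rose by 0.59 ± 0.15 and Pdia3, a disulfide isomerase, by 0.34 ± 0.09. Among hydroxylases, Plod3 rose by 0.34 ± 0.08 and Plod2 fell (-0.85 ± 0.20). Both are lysyl hydroxylases. Ctss and Lair1 rose by 1.62 ± 0.25 and 1.92 ± 0.25, and Mmp12, a macrophage elastase, fell from 29.7, 39.8 and 20.7 CPM to 10.8, 8.92 and 5.55, a log2 fold change of -1.83 ± 0.47. Lama1, a laminin chain that lies beside type IV collagen in basement membranes, fell (-0.47 ± 0.12), as did Smad2, a TGF-beta signal carrier (-0.41 ± 0.10). T cell markers rose for 5 of 5 genes and macrophage markers for 3 of 5 in these ovaries, and their part was not tested. In ARE+/- ovaries Ctss and Lair1 rose, by 1.24 ± 0.25 and 1.53 ± 0.25.

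The sequence before the start of 4 of the 5 collagens called against WT was taken from RefSeq promoters on GRCm38.p6, to show the start regions of the genes that fell, Col1a2 and Col6a3 in the uterus and Col4a4 and Col4a5 in the ovary. The table held 35 of the 44 collagens, in 38 entries, and not Col1a1. Bases that lie in an exon of the GENCODE M21 annotation of that build were left out. The Col1a2 stretch thus runs from 250 to 126 bases before the RefSeq start, and the Col4a5 stretch from 184 to 35. The bases nearer those 2 starts are not shown. Shown are 125 bases of Col1a2 (chr6:4505368-4505492, plus strand), 150 of Col6a3 (chr1:90843972-90844121, minus strand), all 126 bases between the starts of Col4a4 and Col4a3 (chr1:82586850-82586975, read on the minus strand of Col4a4), and 150 of Col4a5 (chrX:141475235-141475384, plus strand, with Col4a6 on the far side). Capitals mark matches to the 4 motifs searched, and only Col1a2 had one.
Col1a2: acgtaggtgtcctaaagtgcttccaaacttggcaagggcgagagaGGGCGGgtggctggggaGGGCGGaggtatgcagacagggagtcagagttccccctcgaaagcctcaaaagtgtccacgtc
Col6a3: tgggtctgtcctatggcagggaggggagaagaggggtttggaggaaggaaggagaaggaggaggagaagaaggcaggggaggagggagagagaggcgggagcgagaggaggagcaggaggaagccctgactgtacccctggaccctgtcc
Col4a4: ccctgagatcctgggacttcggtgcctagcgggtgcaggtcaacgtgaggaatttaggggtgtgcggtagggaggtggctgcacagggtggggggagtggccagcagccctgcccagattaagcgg
Col4a5: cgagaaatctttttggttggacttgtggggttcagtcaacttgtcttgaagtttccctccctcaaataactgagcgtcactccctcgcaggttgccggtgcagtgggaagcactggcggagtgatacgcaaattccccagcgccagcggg

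The motifs were searched on both strands of the 250 bases before the start. They were CCAAT, found in many promoters, TATAAA, the box that places the start, GGGCGG, the box of Sp1-type factors, and TTCNNNGAA (the element bound by STAT factors that interferons activate). GGGCGG was found in 22 of 38 collagen entries (57.9%) and in 32.7% of all 32851 promoters. CCAAT was found in 34.2% and 33.9%, TATAAA in 13.2% and 12.4% and TTCNNNGAA in 5.26% and 7.02%. The Col1a2 sequence held GGGCGG at 205 to 200 and at 188 to 183 bases before the RefSeq start. The Col6a3, Col4a4 and Col4a5 sequences shown held none of the 4 motifs.

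In the gene models of the count tables, which differ from GRCm38 in position for 42 of the 44 collagens, Col1a1 lies on chromosome 11 at 94827050 to 94843868, Col1a2 on 6 at 4505493 to 4541544, and Col6a3 on 1 at 90693645 to 90771693. Col4a4 and Col4a3 lie head to head on chromosome 1 with 126 bases between them, and Col4a6 and Col4a5 on X with 1308 bases between them. Of the pair on chromosome 1, Col4a4 was past the test in the ovary and Col4a3 was not, and of the pair on X, Col4a5 was and Col4a6 was not.

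The authors' deposited table of a likelihood-ratio test over the 3 genotypes gave 13 of 42 collagens an adjusted p under 0.05 in the uterus and 7 of 42 in the ovary, where 7.55% and 12.1% of all genes with a value were under it. In the authors' deposited table the uterine collagens with the smallest values were Col6a3 (9.74e-06), Col1a1 (0.000479), Col15a1 (0.000588), Col1a2 (0.000883) and Col4a1 (0.00122). In that table Col6a3 was also the only collagen that carried one of the authors' cluster numbers, cluster 3 of the uterus. In the ovary the authors' deposited table listed Col14a1, Col9a3, Col8a1, Col4a4, Col11a1, Col4a5 and Col27a1.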

How the data were processed

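Total RNA was sequenced as paired reads in 9 uterus and 9 ovary libraries. Counts per gene were made with featureCounts 2.0.4 on GENCODE M32, unstranded, per the file headers, with reads that map to several places or genes counted for each. The submitters' processing notes name STAR, DESeq2 and mm10, and 2 of 44 collagens have the same start and end in GENCODE M21 on GRCm38, so the tables' coordinates are given as GENCODE M32 lists them. The deposited adjusted p-values and clusters come from the authors' likelihood-ratio test across genotypes.

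Counts were tested with edgeR 4.0.16 (filterByExpr, TMM scaling, robust quasi-likelihood F test, Benjamini-Hochberg adjustment over all genes tested, threshold 0.05), within each tissue over 9 libraries and, for tissue differences, over 18. Standard errors were derived from the F statistic and the fold change. Biological coefficients of variation were 0.411 in uterus, 0.281 in ovary and 0.370 over both. Values are CPM scaled by TMM within a tissue unless the 18-library scale is named. Levels per length divide by the exon length in the count table. R 4.3.3, DESeq2 1.42.0, Python 3.11.15 and scipy 1.17.1 were used, and the scripts were tested on simulated data. In simulated ARE-/- against WT uteri, 1 of 100 genes changed 2-fold and 46 of 96 changed 4-fold were recovered. In simulated ovaries 36 of 98 and 59 of 98 were. Unchanged genes made up 4.1% of calls in uteri and 9.5% in ovaries. A gene that did not pass may therefore still differ. The design text counts 3 mice for the 3 genotypes without tying each library to an animal, so p-values measure the spread between these libraries, which may be technical. Libraries of a group differed by more than counting noise.

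Members and lists were chosen with earlier results of these data known. Named genes were a set of 14 collagens (Col1a1, Col1a2, Col3a1, Col5a1, Col5a2, Col4a1, Col4a2, Col6a1, Col6a2, Col6a3, Col12a1, Col14a1, Col15a1 and Col18a1) in ARE-/- against WT of each tissue, every collagen past the test in a genotype comparison, the 6 largest in each direction between WT tissues, up to 4 genes past the test in each other list, and Ifng. Other collagens named were picked after their values were seen. Of the marker lists, none of endothelium (6 genes), mesothelium (4), epithelium (6), proliferation (5) and uterus tissue (5) passed in ARE-/- uteri, nor did the tested markers of cartilage (3), granulosa and oocyte (4) and theca and luteal (4) cells. In ARE-/- ovaries, 2 of 7 fibroblast and stroma, 3 of 6 epithelium, 2 of 4 mesothelium and 1 of 5 uterus tissue markers rose. None of the adipocyte (9), endothelium (6), proliferation (5), smooth muscle (7), theca and luteal (5), granulosa and oocyte (8) or tested cartilage (4) and erythroid (5) markers passed there. Alternatives were RLE size factors, no filter, DESeq2, a replicate block, only the groups compared, each library left out, and the added omissions of several libraries.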

Additional observations from a re-analysis of the deposited data

Results flagged for a closer look

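No collagen had a genotype effect that differed between tissues past the threshold. The 101 listed genes build, break down or bind collagen, or belong to its matrix partners or the TGF-beta list. The lists were chosen with earlier results of these data known. Among these 101 genes, 3 did differ for ARE-/-, where 0.169% of all genes passed. For ARE+/- 1 of the 101 did, where 0.00375% of all genes passed. The test was of the ovary effect minus the uterus effect over all 18 libraries (edgeR quasi-likelihood test, Benjamini-Hochberg adjustment). Ltbp2 differed by -3.15 on the log2 scale in ARE-/- (adjusted p = 0.00476) and by -2.82 in ARE+/- (adjusted p = 0.0193). It had 30.7, 33.2 and 34.5 CPM in WT and 29, 33.8 and 18.2 in ARE-/- ovaries, so the groups overlapped there, whereas all 6 uteri with the allele lay above the WT uteri. The ARE-/- difference passed in 25 of 25 alternative fits and the ARE+/- difference in 14. P4ha2 differed by 2.01 in ARE-/- (adjusted p = 0.0142), with 14.3, 11.7 and 21.4 CPM in WT and 27.7, 21 and 23.9 in ARE-/- ovaries, and passed in 21 of 25. Itga11 differed by -2.67 in ARE-/- (adjusted p = 0.0439), with 14.1, 24 and 11.8 CPM in WT and 12.2, 17.2 and 16.8 in ARE-/- ovaries, and passed in 10 of 25.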

How the results depend on the processing

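With single libraries left out, 0 to 8 collagens passed in ARE-/- uteri (3 reported), 0 to 2 in ARE+/- uteri (0), 0 to 4 in ARE-/- ovaries (2), 20 to 26 between WT tissues (25), 0 to 6 for the ARE-/- difference between tissues (0) and 0 for ARE+/- (0). DESeq2 called 15, 9, 7, 28, 10 and 1 in these comparisons. With only the groups compared in the fit, 0, 2, 1, 26, 0 and 0 passed. Without uterus WT replicate 2 and ARE-/- replicate 1, chosen after seeing the data, 9, 10, 6 and 3 passed for ARE-/- uteri, ARE+/- uteri and the ARE-/- and ARE+/- differences between tissues. Without ovary ARE+/- replicate 4 and ARE-/- replicates 2 and 3, also chosen after seeing the data, 1 passed in ARE-/- ovaries. In each case the cause was not tested. Calls over all genes in the fits with libraries left out are not given here, so these counts are not a result about collagens alone.

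The labels do not tie same-numbered libraries to an animal or batch, and not every same-numbered pair correlated above 0.1, so the numbers were used as names and not as pairs. Among uteri, deviations of same-numbered libraries correlated at -0.024 to 0.47, and among ovaries at -0.317 to 0.0399, while 7 of 9 uteri and 0 of 7 ovaries correlated best with their own number, which for the uteri is a hint from the data and not from the design. With the replicate block, 2 collagens passed in ARE-/- uteri (Col11a1 and Col15a1), 1 in ARE+/- uteri, 3 in ARE-/- ovaries, 25 between WT tissues and 1 for the ARE-/- difference. None of the block's calls in ARE-/- uteri or ovaries was among those reported, so Col1a1, Col1a2 and Col6a3 in the uterus and Col4a4 and Col4a5 in the ovary did not pass with it. The block also turned Col14a1 in the uterus to -0.0943 and Col18a1 in the ovary to -0.21.

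Some values changed sign when single libraries were left out. With 1 library left out, uterus Col14a1 ranged from -0.26 to 0.38 and Col12a1 from -1.05 to 0.33. In the ovary Col12a1 ranged from -0.17 to 0.18, Col5a2 from -0.0888 to 0.56, Col6a3 from -0.0068 to 0.88 and Col4a2 from -0.25 to 0.0928, and the lowest value of Col18a1 was -0.13. Without WT replicate 2 and ARE-/- replicate 1, uterus Col18a1 was 0.0775, and its lowest value was -0.81. Without the 3 ovaries, the fibrillar median was -0.30 (0.77 without ARE-/- replicate 6), Col5a2 -0.30, Col6a3 -0.28, Col4a2 0.10 and Col18a1 0.53.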
